A study of Mus musculus with 3 samples.

Results

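*Mef2a*, *Mef2c* and *Mef2d* encode 3 of the myocyte enhancer factor 2 (MEF2) transcription factors, and they were taken by symbol from the 14933 genes counted in single cells of the mouse medial prefrontal cortex (mPFC). Members of the family share a MADS-box DNA-binding domain at the start of the protein. Calcium entry frees them from class IIa histone deacetylases through calcium/calmodulin-dependent kinases, and the phosphatase calcineurin activates them. In the brain, MEF2 factors are known for limiting the number of excitatory synapses in response to activity, while the authors of these data describe *Mef2c* as promoting such synapses. MEF2C also acts in microglia and in the development of vessels. In endothelial cells MEF2 factors act below the kinase ERK5 on *Klf2* and *Klf4*.

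tdTomato-positive cells of C57Bl6 mice at postnatal day 5 (P5) were sorted by FACS and captured with a 10X Genomics kit that counts the 3′ ends of transcripts as unique molecular identifiers (UMIs). All 3 genotypes carried *Rbp4-cre*, a BAC transgene used to drive Cre in layer 5 pyramidal neurons, and the Cre-dependent tdTomato reporter. The wild-type library had no floxed *Tbr1*, the heterozygous library was *Tbr1f/+* and the homozygous library *Tbr1f/f*, so that Cre removed *Tbr1*, a T-box transcription factor, from 1 or both alleles in the cells it reached. Each genotype is 1 library, and the number of animals in it is not given in the sources used here. No difference between genotypes can therefore be tested, and intervals on levels and ratios cover counting error only.

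The levels of the 3 genes were read in 17396 filtered cells. Typical neuronal cells, which the authors kept for their comparison of genotypes, numbered 1778 (wild-type), 5357 (heterozygous) and 3935 (homozygous), and atypical neuronal cells, which they set aside, numbered 304, 107 and 462. The other 2873, 1398 and 1182 cells are outside the authors' neuronal table. These were split by 3 or more summed UMIs of *C1qa*, *C1qb* and *C1qc* (called C1q cells, 224, 194 and 107) or of *Cldn5*, *Flt1* and *Pecam1* (called endothelial-gated cells, 318, 108 and 146), which left 2324, 1095 and 929 remaining cells. Only 8 cells passed both gates, and they were left out of both classes. Levels are CPM (UMIs of the gene per 1000000 UMIs), from all UMIs summed over a group of cells in 1 library, and values in sets of 3 are in the order wild-type, heterozygous, homozygous.

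The 8 check markers of microglia that the gate did not use, among them *Cx3cr1*, *P2ry12* and *Csf1r*, summed to 7920 to 10991 CPM in C1q cells and 35.5 to 50.4 CPM in typical cells. The 8 endothelial check markers, among them *Cdh5*, *Kdr* and *Tek*, summed to 4924 to 7038 CPM in endothelial-gated cells and 29.4 to 69.9 CPM in C1q cells. The wild-type library stood apart, since typical cells made up 35.9% of its filtered cells against 78.1% (heterozygous) and 70.5% (homozygous). Median UMIs per typical cell were 1901, 1743 and 1375, and 37 to 58 cell barcodes were shared between any pair of libraries. *Tbr1* was at 27.5, 30.7 and 22.4 CPM in typical cells, but the kit counts 3′ ends, which are outside the floxed exons, so these levels check nothing about the deletion.

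The part of the sequence that makes these genes a family is shown here, because the levels reported here separate members whose DNA-binding starts share most of their bases. These are the first 57 codons of the coding sequence of 1 transcript of each gene, 5′ to 3′ (GRCm38, GENCODE M21), with capitals at the bases that all 3 genes share.
Mef2a: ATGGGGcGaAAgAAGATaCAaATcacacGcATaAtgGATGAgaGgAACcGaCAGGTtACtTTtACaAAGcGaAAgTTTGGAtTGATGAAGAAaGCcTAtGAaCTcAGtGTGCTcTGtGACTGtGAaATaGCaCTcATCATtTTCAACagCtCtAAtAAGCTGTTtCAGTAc
Mef2c: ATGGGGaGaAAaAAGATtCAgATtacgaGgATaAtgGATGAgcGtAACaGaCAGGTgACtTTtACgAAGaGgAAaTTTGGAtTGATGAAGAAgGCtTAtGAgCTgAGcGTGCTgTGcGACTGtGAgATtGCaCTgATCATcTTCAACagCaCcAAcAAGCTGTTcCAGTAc
Mef2d: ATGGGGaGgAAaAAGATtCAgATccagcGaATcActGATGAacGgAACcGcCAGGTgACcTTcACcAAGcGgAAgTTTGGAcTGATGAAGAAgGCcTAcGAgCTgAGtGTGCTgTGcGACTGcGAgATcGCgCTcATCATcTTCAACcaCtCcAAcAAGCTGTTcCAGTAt
All 3 genes have the same base at 123 of these 171 positions (71.9%). *Mef2c* and *Mef2d* share 141 bases, *Mef2a* and *Mef2c* 140, and *Mef2a* and *Mef2d* 133.

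*Mef2a* (ENSMUSG00000030557) is on the minus strand of chromosome 7, from 67231163 to 67372858. Its span overlaps 3 annotated genes, *Gm44667* and *Gm44668* on the same strand and *Lysmd4* on the other, and the sources used here do not say whether counting used strand. *Lysmd4* was at 4.55 to 16.7 CPM in endothelial-gated cells and at 20.4 to 29.4 CPM in typical cells, the opposite order to that of *Mef2a* in the same cells. *Mef2c* (ENSMUSG00000005583) lies on the plus strand of chromosome 13, from 83504034 to 83667080, with no overlapping gene. *Mef2d* (ENSMUSG00000001419) lies on the plus strand of chromosome 3, from 88142372 to 88172086, and overlaps *1700113A16Rik* on the other strand. *Mef2b*, the fourth gene of the family, had 0 UMIs in all barcodes of each library, which allows at most 0.0545, 0.0859 and 0.0900 CPM (3 counts per library) of UMIs counted for it. Its span overlaps *Borcs8* on the same strand, and reads that fit both genes may not have been counted for *Mef2b*.

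*Mef2c* had the most UMIs of the 3 members in each of the 5 groups of cells, and *Mef2a* had its highest level in endothelial-gated cells, where *Mef2c* was low. The lead was small in that group, with 224, 80 and 79 UMIs of *Mef2c* and 188, 72 and 54 of *Mef2a*. The kit counts 1 end per transcript, so these levels need no scaling by gene length, but how well each 3′ end was captured was not measured. *Mef2c* was at 682 CPM (655 to 709, 95% Poisson interval), 704 CPM (688 to 720) and 803 CPM (780 to 826) in typical neuronal cells. C1q cells had 674 CPM (616 to 736), 716 CPM (646 to 791) and 812 CPM (700 to 938), so that both groups overlap and do not differ beyond the spread over libraries. In endothelial-gated cells *Mef2c* was at 190 CPM (166 to 217), 223 CPM (177 to 277) and 180 CPM (142 to 224), below every typical and C1q value. Atypical neuronal cells had 253 CPM (217 to 294), 162 CPM (113 to 225) and 299 CPM (261 to 341), also below every typical and C1q value, and their intervals were apart from that of endothelial-gated cells in the homozygous library. Remaining cells ran from 324 CPM in the wild-type library to 735 and 602 CPM in the mutant libraries, a spread that spans the gap between these groups.

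Free RNA held *Mef2c* as well. Barcodes with at least 100 and under 500 UMIs, taken as empty droplets, had 472 CPM (461 to 483), 536 CPM (521 to 552) and 580 CPM (567 to 593) of *Mef2c*. Typical and C1q cells were above their own library's empty droplets in each of the 3 libraries, while atypical and endothelial-gated cells were below them.

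*Mef2a* had a different order of cell groups. Endothelial-gated cells were highest at 160 CPM (138 to 184), 200 CPM (157 to 252) and 123 CPM (92.3 to 160). C1q cells followed at 63.6 CPM (46.7 to 84.6), 86.5 CPM (63.5 to 115) and 69.9 CPM (39.9 to 113), and remaining cells at 43.0, 44.5 and 49.2 CPM. The point values of these 3 groups did not overlap across libraries. In the homozygous library the C1q interval overlapped that of endothelial-gated cells and held the value of remaining cells. Thinned to 1000 UMIs per cell, C1q cells had 26.8, 97.9 and 74.8 CPM, from 6, 19 and 8 UMIs. Remaining cells thinned in the same way had 40.0, 52.1 and 45.2 CPM, so C1q cells were lower in the wild-type library. Typical neuronal cells, at 25.3 CPM (20.4 to 31.0), 27.7 CPM (24.6 to 31.1) and 25.2 CPM (21.4 to 29.5), and atypical cells, at 40.0, 23.1 and 36.2 CPM, overlapped. Empty droplets held 24.2, 24.5 and 21.3 CPM of *Mef2a*, within the intervals of the typical cells in the wild-type library and just under them in the heterozygous and homozygous libraries, so that levels in typical cells were close to those of free RNA. On a log2 scale the endothelial-gated level was above that of typical cells by 2.66 (2.29 to 3.03), 2.85 (2.46 to 3.23) and 2.29 (1.81 to 2.74), given without a test because the authors' clustering of all genes chose the typical cells.

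**Figure D1:**
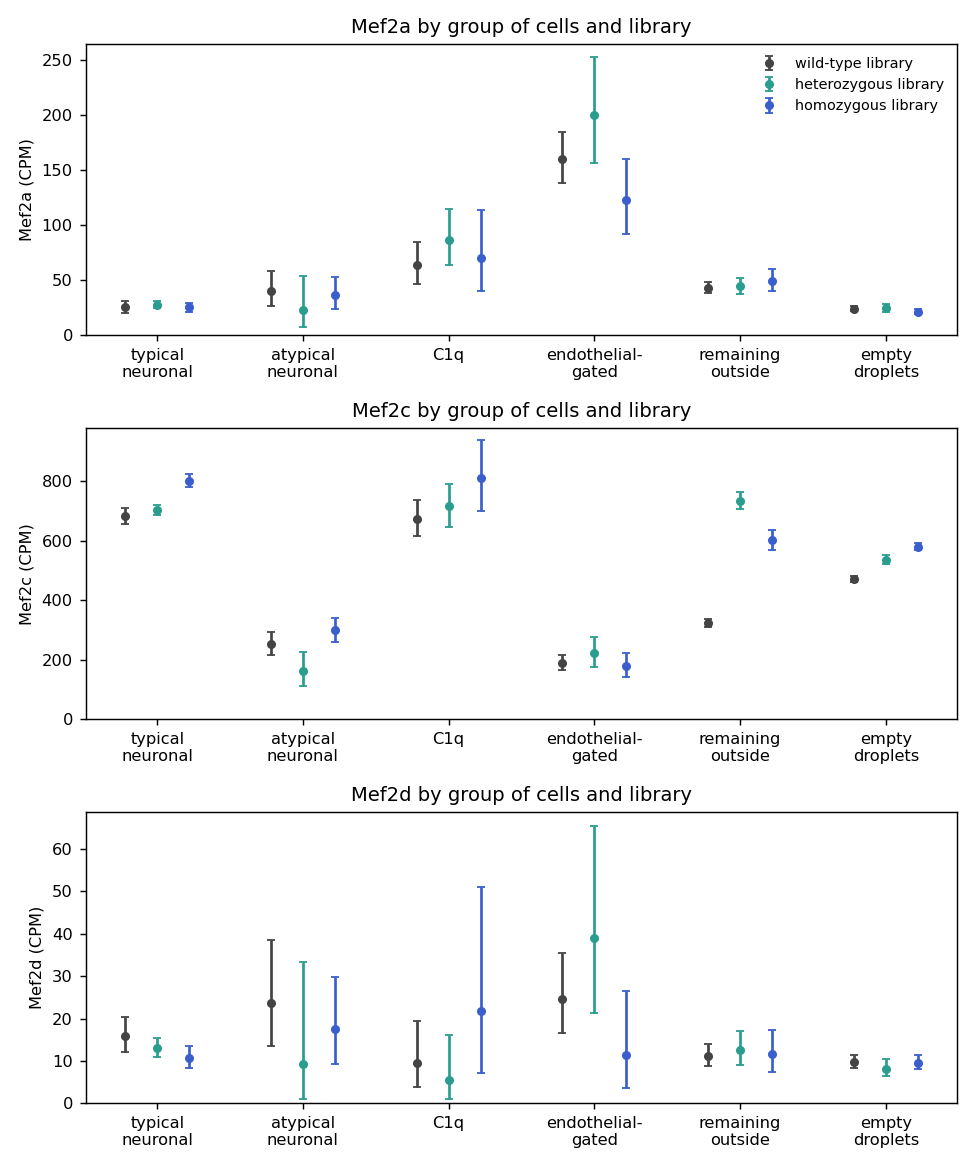
Level of each Mef2 gene (vertical axis, CPM, each panel with its own scale from 0) in 5 groups of filtered cells and in empty droplets of 100 to under 500 UMIs, 1 point per library with its 95% Poisson interval. *Mef2c* points of typical and C1q cells are between 674 and 812 CPM and those of endothelial-gated cells between 180 and 223 CPM, while *Mef2a* points are highest in endothelial-gated cells, at 123 to 200 CPM.

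*Mef2d* was low in every group. Typical neuronal cells had 15.8 CPM (12 to 20.4), 13.0 CPM (10.9 to 15.3) and 10.7 CPM (8.26 to 13.6) of *Mef2d*. Endothelial-gated cells had 24.7, 39.0 and 11.4 CPM, from 29, 14 and 5 UMIs, and C1q cells 9.47, 5.52 and 21.8 CPM, from 7, 3 and 5 UMIs. *Mef2d* ranges over libraries of all 5 groups of cells overlapped with that of at least 1 other, and empty droplets held 8.22 to 9.75 CPM.

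Family UMIs were accordingly made up in different ways. *Mef2c* gave 94.3, 94.5 and 95.7% of the Mef2 UMIs of typical cells and 90.2, 88.6 and 89.9% of those of C1q cells. In endothelial-gated cells it gave 50.8, 48.2 and 57.2%, and *Mef2a* gave 42.6, 43.4 and 39.1%. Among atypical cells the *Mef2c* share was 79.9, 83.3 and 84.8%. The *Mef2a* share in typical cells was 3.50, 3.73 and 3.0%.

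**Figure D2:**
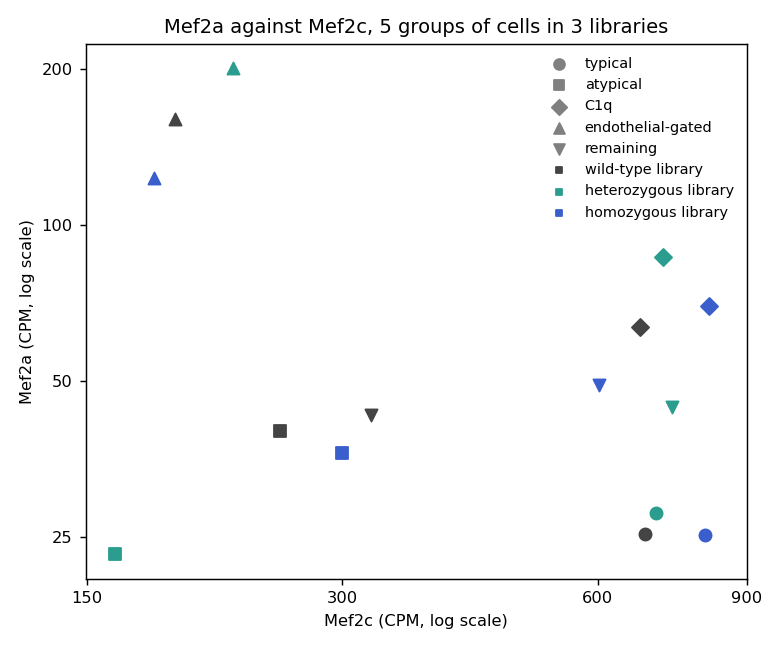
*Mef2a* against *Mef2c* (both axes CPM on a log scale) for 5 groups of cells in 3 libraries, 1 point per group and library. Endothelial-gated cells (triangles) are at 123 to 200 CPM of *Mef2a* and 180 to 223 CPM of *Mef2c*, typical cells (circles) at 25.2 to 27.7 CPM of *Mef2a* and 682 to 803 CPM of *Mef2c*, and C1q cells (diamonds) have more *Mef2a* than typical cells at a like level of *Mef2c*.

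The C1q and endothelial gates used markers other than Mef2 genes, and the groups outside the neuronal table were compared with a test. Which cells lay outside that table was set by the authors' clustering of all genes. The remaining cells are what both gates left of them, so p-values against remaining cells carry that choice. UMIs of C1q, endothelial-gated and remaining cells were summed per library, and the 9 sums were fitted with edgeR's quasi-likelihood test with the library as a block, since the same 3 libraries gave all 3 classes. Adjusted p-values (Benjamini-Hochberg) are over the 8572 genes tested, and differences are on a log2 scale with a standard error (SE). The SE was worked back from the test, as the absolute difference over the square root of its F statistic.

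Between C1q and endothelial-gated cells, 2 of the 3 members differed, beside 36.1% of all genes tested. *Mef2c* was higher in C1q cells by 2.03 (SE 0.21, edgeR adjusted p = 3.23e-08). *Mef2a* was lower in C1q cells by 0.99 on this scale, as its level was 63.6 to 86.5 CPM there and 123 to 200 CPM in endothelial-gated cells (SE 0.21, edgeR adjusted p = 0.000561). Both differences had the same sign in 3 of 3 libraries. The *Mef2d* difference was -1.14 (SE 0.51) with an edgeR adjusted p of 0.0864, and the value rested on single libraries. Without the homozygous library it was -1.83 (edgeR adjusted p = 0.00477) and without the heterozygous library -0.51 (edgeR adjusted p = 0.573).

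Against the remaining cells, endothelial-gated cells had more *Mef2a*, by 1.83 (SE 0.18, edgeR adjusted p = 8.95e-09), and less *Mef2c*, at -1.41 (SE 0.21, edgeR adjusted p = 3.99e-06). *Mef2d* was higher in endothelial-gated cells by 1.08 (SE 0.37, edgeR adjusted p = 0.0179). All 3 members thus passed, beside 47.9% of the genes tested. The *Mef2d* call was lost without the wild-type library (0.99, edgeR adjusted p = 0.115) and without the heterozygous library (0.91, edgeR adjusted p = 0.0779). Hemoglobin genes (4 of 4 detected in each library) summed to 21770, 53444 and 42400 CPM in endothelial-gated cells and 7539, 571 and 3348 CPM in remaining cells, and their part in these differences was not tested.

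C1q cells had more *Mef2a* than remaining cells by 0.84 (SE 0.21, edgeR adjusted p = 0.00307) and more *Mef2c* by 0.62 (SE 0.20, edgeR adjusted p = 0.0166), so that 2 of 3 members passed beside 31.7% of genes. With cells thinned to 1000 UMIs, *Mef2a* had the opposite order in the wild-type library, on 6 UMIs in C1q cells. The *Mef2c* call rested on the wild-type library, and without it the value was 0.18 with an edgeR adjusted p of 0.477. Within libraries the log2 ratio of C1q over remaining cells was 1.06 (wild-type, 0.91 to 1.20), -0.04 (heterozygous, -0.20 to 0.12) and 0.43 (homozygous, 0.20 to 0.66). For *Mef2d* the difference was -0.06 (SE 0.49, edgeR adjusted p = 0.948), with a sign that turned to 0.40 without the heterozygous library.

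The level of *Mef2c* in the remaining cells moved with markers of excitatory neurons and with mitochondrial content. Excitatory check markers (*Nrgn*, *Tbr1*, *Slc17a6* and *Cnih2*, 4 of 4 detected) summed to 859, 2626 and 1884 CPM in the remaining cells, the same order over libraries as the 324, 735 and 602 CPM of *Mef2c*. In C1q cells they summed to 721, 1743 and 1511 CPM with 1 of 4 at 0 in each library, and in endothelial-gated cells to 442, 757 and 392 CPM. Typical cells had 2581, 3194 and 3845 CPM of these markers and empty droplets 1565, 2219 and 2514 CPM, and their part in the *Mef2c* level was not tested. The median mitochondrial share of UMIs in remaining cells was 4.48, 13.4 and 8.70%, again in the order of *Mef2c*, and its part was not tested either. Cells just inside the gates, with 3 gate UMIs, had 661 CPM of *Mef2c* for C1q and 254 CPM for the endothelial gate, and cells just outside, with 2 gate UMIs, had 566 and 409 CPM. *Mef2a* was at 16.2 CPM inside and 39.1 CPM outside the C1q gate and at 63.5 CPM inside and 70.6 CPM outside the endothelial gate. All these values at the cut are summed over the libraries. Those of *Mef2a* rest on 3 to 14 UMIs each, and the 254 CPM of *Mef2c* on 16 UMIs in 28 cells, too few to set them against the levels of the whole classes. The mix of libraries differed too, as the endothelial gate had 49, 8 and 14 cells with 2 gate UMIs and 15, 8 and 5 with 3.

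Cells outside the neuronal table that passed exactly 1 of 9 marker gates showed how the members were spread over further cell types. Each gate asked for 3 or more summed UMIs of 3 markers, and the levels are a description of classes that hold few cells. Excitatory-gated cells (*Neurod6*, *Neurod2*, *Slc17a7*), with 37, 36 and 8 cells, had 760, 927 and 1240 CPM of *Mef2c*. Single cells weighed heavily in these sums, as 1 of the 8 homozygous cells held 16 of the 34 UMIs and 1 heterozygous cell 29 of 139. With each cell thinned to 1000 UMIs the levels were 703, 1167 and 750 CPM, from 26, 42 and 6 UMIs. Inhibitory-gated cells (*Gad1*, *Gad2*, *Slc32a1*), with 71, 50 and 39 cells, had 710 CPM (605 to 827), 917 CPM (793 to 1055) and 1068 CPM (934 to 1215). Here 1 wild-type cell held 36 of 164 UMIs, and thinned levels were 507, 680 and 1077 CPM, beside 669, 690 and 773 CPM in typical cells thinned in the same way. Mural-gated cells (*Rgs5*, *Kcnj8*, *Vtn*), which mark pericytes and smooth muscle cells of vessels, numbered 81, 24 and 46 and had 705, 544 and 699 CPM. Whether these 3 classes were above or below typical cells thus depended on the library and on the weight given to deep cells.

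*Mef2c* was low in dividing cells and in cells of the oligodendrocyte lineage, as it was in endothelial-gated cells that passed no other gate (186, 162 and 168 CPM). Cycling-gated cells (*Top2a*, *Mki67*, *Cenpf*), with 114, 17 and 14 cells, had 145, 163 and 132 CPM of *Mef2c*. Oligodendrocyte-lineage-gated cells (*Olig1*, *Olig2*, *Pdgfra*), with 185, 14 and 37 cells, had 181, 303 and 108 CPM. All of these values were under the empty-droplet level of their own library. Astrocyte-gated cells (*Aldoc*, *Slc1a3*, *Gja1*) differed among libraries by more than counting error, at 310 CPM (282 to 339), 747 CPM (696 to 801) and 495 CPM (432 to 566), and their excitatory check markers summed to 943, 3019 and 1936 CPM in the same order. Whether these neuronal UMIs carried the *Mef2c* of astrocyte-gated cells was not tested. Meningeal-gated cells (*Dcn*, *Col1a1*, *Lum*) numbered 4, 2 and 0 and are too few to describe.

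*Mef2a* was at 164, 204 and 117 CPM in endothelial-gated cells that passed no other gate. In the heterozygous library these cells held 39 UMIs of *Mef2a* and 31 of *Mef2c*. Excitatory-gated cells had 42.6 CPM (15.6 to 92.8), 46.7 CPM (18.8 to 96.2) and 146 CPM (39.8 to 374), from 6, 7 and 4 UMIs. Mural-gated cells had 105 CPM (65.7 to 159), 40.3 CPM (4.88 to 146) and 55.4 CPM (18 to 129) and inhibitory-gated cells 47.6, 93.6 and 97.9 CPM, from 2 to 22 UMIs a library. Astrocyte-gated cells were at 32.7, 28.2 and 40.7 CPM, and at 38.4, 42.1 and 48.3 CPM with a gate of 5 or more UMIs. Their 3 gate genes summed to 723, 930 and 849 CPM in empty droplets, and whether free RNA carried cells past this gate was not tested. In the oligodendrocyte lineage the homozygous library had 0 *Mef2a* UMIs, which allows up to 30.7 CPM, beside 28.8 CPM in the wild-type library. Among these classes only the endothelial-gated cells were above 100 CPM of *Mef2a* in all 3 libraries.

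**Figure D3:**
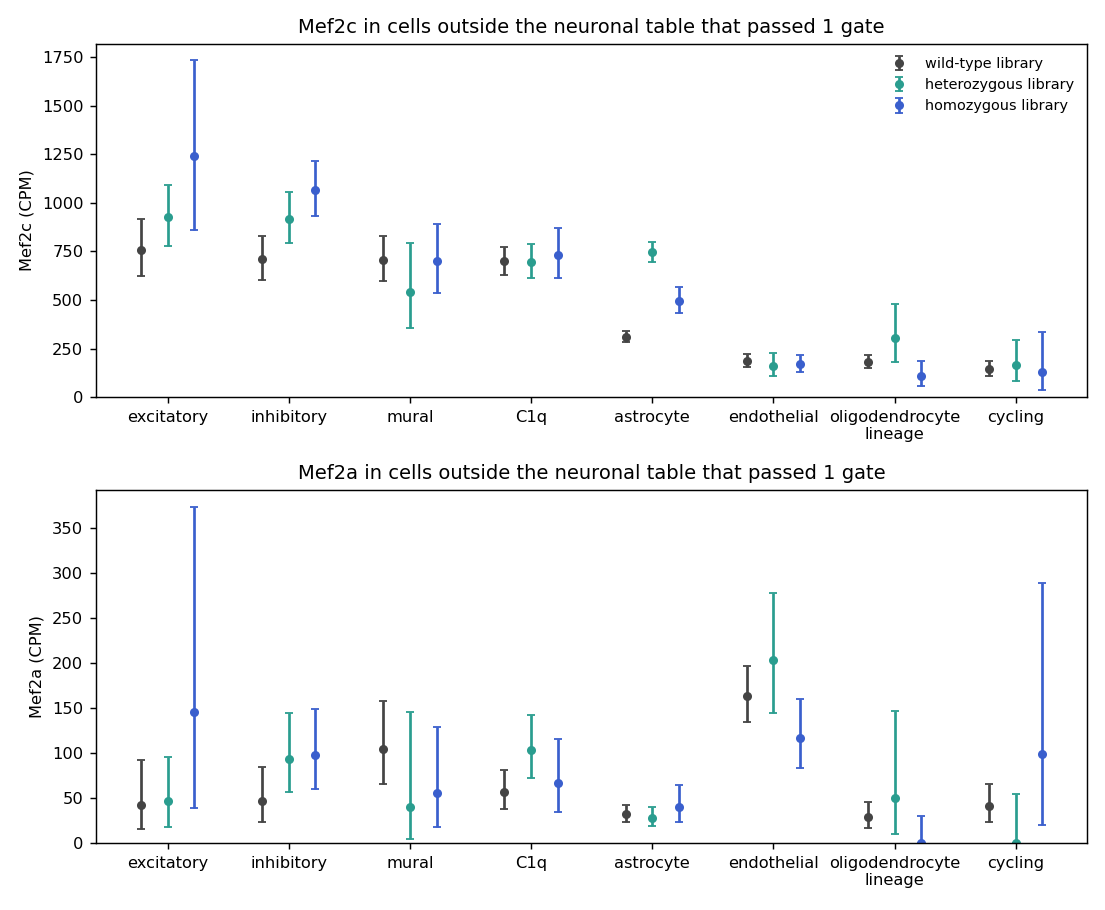
*Mef2c* (top) and *Mef2a* (bottom) in cells outside the neuronal table that passed exactly 1 marker gate (vertical axis, CPM from 0, with 95% Poisson intervals), 1 point per library. *Mef2c* is at 760 to 1240 CPM in excitatory-gated cells, where the highest point is 8 cells and is 750 CPM after thinning, at 710 to 1068 CPM in inhibitory-gated cells and 132 to 163 CPM in cycling-gated cells, and *Mef2a* is at 117 to 204 CPM in endothelial-gated cells.

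Typical neuronal cells differed in *Mef2c* by the layer genes they held. Cells with at least 1 UMI of upper-layer genes (*Cux1*, *Cux2*, *Rorb*, *Lhx2*, *Mdga1*) and none of deep-layer genes (*Fezf2*, *Bcl11b*, *Tle4*, *Foxp2*, *Crym*) had 778 CPM (718 to 843), 858 CPM (822 to 895) and 1003 CPM (951 to 1056) of *Mef2c*. Cells with deep-layer genes only had 607 CPM (554 to 663), 604 CPM (572 to 637) and 702 CPM (657 to 750). *Mef2c* was therefore lower in the deep-gene cells in 3 of 3 libraries, with log2 ratios of -0.36 (-0.53 to -0.19), -0.51 (-0.61 to -0.41) and -0.51 (-0.64 to -0.39). Cells with both sets, at 679, 722 and 852 CPM, lay between them in each library. Cells with neither set were the most numerous and had 674, 659 and 738 CPM. Against these, upper-gene cells were higher by 0.21 (0.06 to 0.35), 0.38 (0.30 to 0.46) and 0.44 (0.34 to 0.54) on the log2 scale, and deep-gene cells differed by -0.15 (-0.31 to 0.00), -0.13 (-0.22 to -0.03) and -0.07 (-0.19 to 0.04).

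Depth was alike in both kinds of cell, with median UMIs of 1917, 1822.5 and 1430 in deep-gene cells and 1977, 1866.5 and 1483.5 in upper-gene cells, and with every cell thinned to 1000 UMIs the *Mef2c* log2 ratios were -0.24, -0.55 and -0.48. *Mef2a* showed no common direction, at 35.9 against 16.7 CPM, 28.1 against 28.2 CPM and 24.5 against 29.3 CPM in deep-gene against upper-gene cells. *Mef2d* was at 7.84 to 21.1 CPM in deep-gene and 12.6 to 16.7 CPM in upper-gene cells, from 12 to 34 UMIs each.

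**Figure D4:**
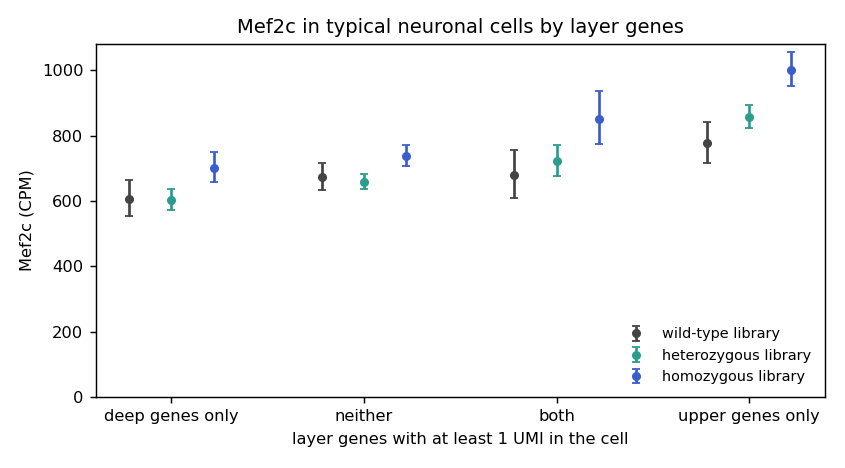
*Mef2c* (vertical axis, CPM from 0, with 95% Poisson intervals) in typical neuronal cells grouped by whether a cell held at least 1 UMI of deep-layer genes, of upper-layer genes, of both or of neither, 1 point per library. Deep-gene cells are at 604 to 702 CPM and upper-gene cells at 778 to 1003 CPM, and within each library the upper-gene cells are higher.

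Comparing genotypes asks whether loss of *Tbr1* went along with a different level of a member. In typical neuronal cells the *Mef2c* log2 ratio was 0.05 (-0.02 to 0.11) for heterozygous over wild-type, 0.24 (0.17 to 0.31) for homozygous over wild-type and 0.19 (0.14 to 0.24) for homozygous over heterozygous. The homozygous library was thus above the other libraries by more than counting error in CPM, while the same ratios of mean raw UMIs per cell, without scaling, were -0.04, -0.18 and -0.14. Unscaled ratios carry the depth of the cells, which shifts every gene alike, by a log2 ratio of -0.09 for heterozygous and -0.42 for homozygous over wild-type, and are no measure of *Mef2c* relative to other genes. Excitatory check markers in the same cells were in the same order of libraries, at 2581, 3194 and 3845 CPM, as did *Mef2c* in empty droplets, at 472, 536 and 580 CPM. The median mitochondrial share of typical cells was 10.4, 15.4 and 12.5%, and the part of these in the *Mef2c* ratios was not tested. *Mef2a* had ratios of 0.13 (-0.21 to 0.48), -0.01 (-0.39 to 0.38) and -0.14 (-0.43 to 0.15) in the same order, with intervals that include 0.

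Neither *Mef2c* nor *Mef2a* was past 1.5-fold (0 of 2 members in each comparison). Of the 4261 genes whose mean reached 20 CPM, 5.98% were past it for heterozygous over wild-type, 4.90% for homozygous over wild-type and 1.15% for homozygous over heterozygous, with median log2 ratios of 0.06, 0.08 and 0.01. The *Mef2c* ratio was above that of 47.4, 73.0 and 87.5% of these genes, and the *Mef2a* ratio above that of 60.3, 37.7 and 15.3%. *Mef2d* was under the minimum of 20 CPM and had ratios of -0.29 (-0.74 to 0.18), -0.56 (-1.10 to -0.03) and -0.28 (-0.73 to 0.16), from 58, 135 and 65 UMIs. Both ratios over wild-type share the wild-type library and are not independent of each other.

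**Figure D5:**
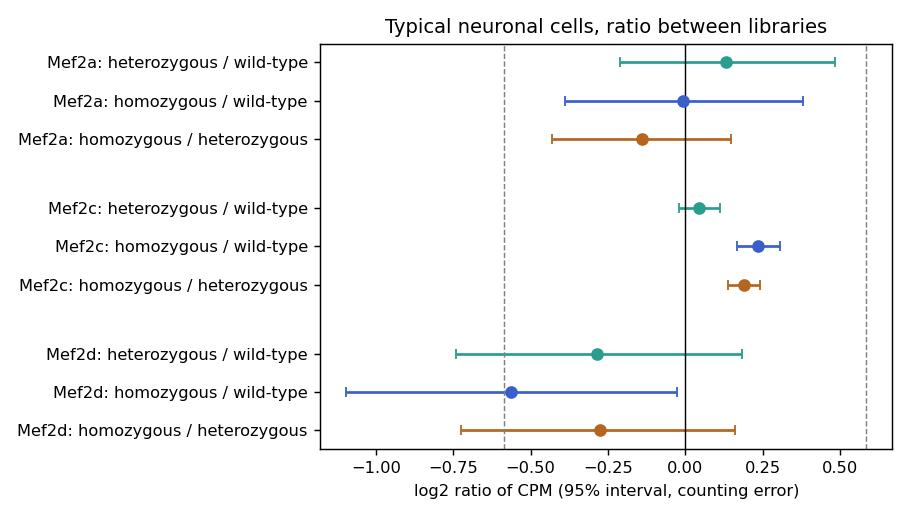
Log2 ratio of CPM between libraries in typical neuronal cells (horizontal axis) for each Mef2 gene and each pair of genotypes, with the 95% interval from counting error and dashed lines at 1.5-fold in each direction. Homozygous over wild-type is 0.24 for *Mef2c*, or -0.18 without scaling, where the depth of the cells shifts every gene by -0.42, and -0.01 for *Mef2a*, and the interval of *Mef2d* runs from -1.10 to -0.03.

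Outside the typical cells the *Mef2c* ratios between libraries were not of 1 direction. Heterozygous over wild-type was 1.18 (1.10 to 1.26) in remaining cells, 0.09 (-0.11 to 0.28) in C1q cells, 0.23 (-0.16 to 0.60) in endothelial-gated cells and -0.64 (-1.21 to -0.11) in atypical cells. Homozygous over wild-type was 0.89 (0.79 to 1.0), 0.27 (0.02 to 0.52), -0.08 (-0.47 to 0.29) and 0.24 (-0.05 to 0.54) in the same order. The excitatory check markers of the remaining cells differed among libraries, as did those of C1q cells and empty droplets given above. Their part in these ratios was not tested. For *Mef2a* in endothelial-gated cells, homozygous over heterozygous was -0.71 (-1.24 to -0.18) and homozygous over wild-type -0.38 (-0.84 to 0.06). In remaining cells *Mef2a* had ratios of 0.05 (-0.24 to 0.34) for heterozygous and 0.20 (-0.15 to 0.53) for homozygous over wild-type.

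Of 27 genes that act with MEF2 factors, 23 could be tested between C1q and endothelial-gated cells, and 7 were higher and 3 lower in C1q cells, beside 36.1% of all 8572 genes called in either direction. The median log2 difference was 0.63 for the list and 0.12 over all genes. Of all 8572 genes 1743 were higher in C1q cells, and among the 10 calcium and kinase inputs 6 were. These included *Camk1*, a calcium/calmodulin-dependent kinase, at 237 to 325 CPM in C1q cells and 43.2 to 64.6 CPM in endothelial-gated cells (difference 2.57, edgeR adjusted p = 5.89e-09). *Camk2a*, a subunit of CaMKII, was at 36.5 to 92.0 against 18.2 to 27.8 CPM (1.44, edgeR adjusted p = 0.000369). *Camk4*, a nuclear kinase of the same family, was at 32.5 to 42.3 against 2.28 to 19.5 CPM (1.39, edgeR adjusted p = 0.00687). *Camk2a* and *Camk4* were higher still in typical neuronal cells, at 97.0 to 125 and 66.5 to 80.6 CPM, beside the excitatory check markers of C1q cells given above.

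The 3 genes that were lower in C1q cells are known from vessels. *Hdac7*, a class IIa deacetylase that represses MEF2 factors, was the repressor called among 4 tested, at 4.06 to 5.52 CPM in C1q cells and 61.2 to 70.6 CPM in endothelial-gated cells (difference -3.62, edgeR adjusted p = 1.74e-07). *Klf2* and *Klf4*, transcription factors that MEF2 induces in endothelium, were at 131 to 214 and 3.68 to 21.8 CPM in C1q cells against 850 to 1068 and 77.9 to 89.3 CPM in endothelial-gated cells (-2.46 and -2.58, edgeR adjusted p = 4.61e-10 and 3.93e-06). Of the other 4 targets tested, *Jun* was higher in C1q cells (0.71, edgeR adjusted p = 0.00225). The coactivators *Ep300*, *Crebbp* and *Ncoa2* did not pass, with edgeR adjusted p-values of 0.246 to 0.951.

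Against remaining cells, 6 of the 23 pathway genes were higher and 1 lower in C1q cells, near the 31.7% of all genes called. In endothelial-gated cells 5 were higher and 8 lower, beside 47.9% of all genes. The 8 lower genes included 7 of the 10 calcium and kinase inputs, among them the calcineurin subunits *Ppp3ca* (-0.93, edgeR adjusted p = 0.000123), *Ppp3cb* (-1.04, 7.51e-05) and *Ppp3r1* (-0.81, 0.00268). Of all 8572 genes, 2185 were lower in endothelial-gated cells. Neuronal markers were lower there as well, with excitatory check markers at 392 to 757 CPM against 859 to 2626 CPM in remaining cells and inhibitory check markers at 84.2 to 685 CPM against 1671 to 3880 CPM. Their part in the lower kinase and calcineurin genes was not tested. In typical neuronal cells 12 of the 27 genes reached a mean of 20 CPM, and *Crebbp*, a histone acetyltransferase and coactivator, was past 1.5-fold for heterozygous over wild-type, at 20.1 against 30.5 CPM (log2 ratio -0.61, -0.94 to -0.26). This is 1 of 12 beside 5.98% of the 4261 genes. The other 11 were within 1.5-fold of the wild-type library in both mutant libraries, and the 15 list genes with a lower mean were not assessed.

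The genes whose levels were most like those of *Mef2a* were *St8sia4*, *Klf2* and *Ifnar1*, with Pearson r of log2(CPM + 5) of 0.97, 0.96 and 0.96 over 15 sums (5 groups of cells in 3 libraries), among 5428 genes whose mean reached 20 CPM. *St8sia4* and *Ifnar1* reached that mean only through the endothelial-gated sums, where *Mef2a* is also highest, so their likeness to *Mef2a* follows in part from the minimum. *St8sia4*, a polysialyltransferase, was at 102 to 192 CPM in endothelial-gated cells and 17.5 to 29.4 CPM in C1q cells. *Ifnar1*, a subunit of the type I interferon receptor, was at 60.4 to 86.3 and 18.4 to 26.2 CPM. For *Mef2c* they were *Atp6v1c1*, a subunit of the vacuolar proton pump (0.92), *Pole4*, a subunit of DNA polymerase epsilon (0.90), and *Stx7*, a syntaxin of endosomes (0.90). *Stx7* was at 154 to 215 CPM in typical cells, 200 to 269 CPM in C1q cells and 96.9 to 114 CPM in endothelial-gated cells. *Mef2a* and *Mef2c* had an r of -0.36 with each other, and all these values describe sums that share 3 libraries and differ in depth.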

How the data were processed

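The series holds 3 libraries of tdTomato-positive mPFC cells at P5, 1 per genotype. The authors made the deposited counts with Cell Ranger 2.0.1 on mm10, as the submitters' processing notes name them, as raw UMI counts per gene and cell. The authors' filters on cells were kept. Mitochondrial content was deposited as a fraction per cell and was used only to describe the cells. A neuronal table named as raw counts was deposited as a natural log of 1 plus UMIs per 10000 and gave only its list of genes. A scaled table was not used, and 0 columns of per-sample values were left unmapped.

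Filtered cells were assigned to libraries and to typical or atypical cells by the authors' lists. The members and all lists were chosen with earlier results of these data known. UMIs were summed per library and group with Python 3.11.15 and scipy 1.17.1, giving CPM with exact Poisson intervals and ratios with exact conditional binomial (Clopper-Pearson) intervals at 95%. Typical cells held 3670646, 10418228 and 6074494 UMIs in the order wild-type, heterozygous, homozygous, out of 55057757, 34906481 and 33322518 in all barcodes. Checked against the per-library matrices, the UMIs of each member in the filtered table differed in 0 cells.

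Classes outside the neuronal table were tested with edgeR 4.0.16 (R 4.3.3, filterByExpr, TMM, quasi-likelihood, library as a block) at an adjusted p of 0.05 over 9 sums. Libraries are the replicates there, and nothing says how many animals each holds. With the library as a block, p-values set class differences against their variation over these 3 libraries, which are also 3 genotypes. The method moderates this variation with that of all genes tested, so a p-value does not measure the spread of that gene alone. The block rests on the design, as each class was taken from the same libraries. No test was made between genotypes, or between typical cells and others.

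Besides the members, the text names the pathway genes past 1.5-fold between typical cells of a mutant and the wild-type library at a mean of at least 20 CPM, up to 3 pathway genes per direction with the largest difference between C1q and endothelial-gated cells, and the 3 genes most correlated with *Mef2a* and with *Mef2c* over 15 sums, since *Mef2d* was under the minimum of 20 CPM there. *Jun*, the coactivators and the calcineurin subunits were named after their values were seen. Detection shares were not reported, and 1 marker of the excitatory check list is not reported here and was left out of its sums. No doublet caller was run, and a repeat without the deepest 5% of cells per library stood in for it. That repeat kept all 1778 and 5357 typical cells of the wild-type and heterozygous libraries and 3872 of 3935 in the homozygous library. It therefore could not probe doublets among typical cells. Both the ratio intervals and the edgeR steps were tested on simulated data. Alternatives were other denominators and normalizations, DESeq2 1.42.0, no filter, other gates, cells thinned to 1000 UMIs each, the profile of empty droplets subtracted and leaving out each library.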

Additional observations from a re-analysis of the deposited data

Results flagged for a closer look

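The *Mef2c* log2 ratio of heterozygous over wild-type was 1.18 in remaining cells and -0.64 in atypical neuronal cells. It stood out because the direction was opposite in these groups of cells, with intervals of 1.10 to 1.26 and -1.21 to -0.11 that cover counting error only. The difference between the groups was not tested, since each genotype is 1 library. The atypical value rests on 35 UMIs in 107 cells of the heterozygous library and 171 UMIs in 304 cells of the wild-type library. Thinned to 1000 UMIs per cell, wild-type atypical cells had 276 CPM (84 UMIs) and heterozygous ones 243 CPM (26 UMIs). The direction was kept there, but most of the gap was gone. Remaining cells thinned in the same way had 336 CPM (wild-type) and 665 CPM (heterozygous). Excitatory check markers in the remaining cells summed to 859 CPM in the wild-type and 2626 CPM in the heterozygous library. In atypical cells, where *Mef2c* was lower in the heterozygous library, they summed to 1398 and 3218 CPM, also higher in the heterozygous library, and their part in the ratio was not tested.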

How the results depend on the processing

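Over 65 results and 245 alternative values, 218 counted as unchanged. They kept their direction and their side of the threshold, or moved by less than their error. Numbers of genes called counted as unchanged when within 1.5-fold of the main number. Without the deepest 5% of cells, the typical cells of the wild-type and heterozygous libraries were unchanged, so that repeat could not move their ratios. Genotype ratios allow no leaving out of a library, and the counting interval is their only error. Among them, mean raw UMIs per cell gave -0.43 and -0.47 for *Mef2a* homozygous over wild-type and over heterozygous, and -0.041, -0.18 and -0.14 for *Mef2c* heterozygous over wild-type, homozygous over wild-type and homozygous over heterozygous. With typical and atypical cells together, *Mef2c* heterozygous over wild-type was 0.17 and homozygous over heterozygous 0.11. After subtraction of the empty-droplet profile *Mef2c* heterozygous over wild-type was -0.065. The cause of these moves was not tested beyond the depth per cell that raw UMIs carry.

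*Mef2a* and *Mef2c* kept their calls between C1q and endothelial-gated cells and between endothelial-gated and remaining cells under each alternative run. A gate of 1 UMI made the *Mef2c* differences smaller, from 2.03 to 1.33 for C1q over endothelial-gated cells. For endothelial-gated over remaining cells it moved *Mef2c* from -1.41 to -0.84. For C1q over remaining cells, the *Mef2c* difference lost its call with DESeq2 (0.59, adjusted p = 0.117), with a gate of 1 UMI (0.49, edgeR adjusted p = 0.0510) and in the fit with no replicate block (0.54, edgeR adjusted p = 0.168), and it ranged from 0.18 to 0.95 when a library was left out. Leaving out the library block changed no other call of a member. *Mef2d* over the same cells ranged from -0.38 to 0.40 when a library was left out. A gate of 1 UMI gave 1731 genes called in place of 2715. *Mef2d* in C1q over endothelial-gated cells passed with a gate of 5 UMIs (-1.37, edgeR adjusted p = 0.0496) and ranged from -1.83 to -0.51 when a library was left out. *Mef2d* in endothelial-gated over remaining cells lost its call with DESeq2 (1.12, adjusted p = 0.0750) and with a gate of 1 UMI (0.83, edgeR adjusted p = 0.0723), and ranged from 0.91 to 1.46 when a library was left out. The cause was not tested.

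With a gate of 5 UMIs, *Mef2c* was at 1212 CPM in excitatory-gated cells of the heterozygous library, 1055 CPM in inhibitory-gated cells of the wild-type library, 278 and 402 CPM in astrocyte-gated cells of the wild-type and homozygous libraries and 176 CPM in oligodendrocyte-lineage-gated cells of the heterozygous library, and *Mef2a* was at 42.1 CPM in astrocyte-gated cells of the heterozygous library. Thinned to 1000 UMIs, *Mef2a* in deep-gene over upper-gene cells of the wild-type library had a log2 ratio of 2.22. Depth limits *Mef2d* and *Mef2a* most, with 3 to 14 UMIs of *Mef2d* in C1q and endothelial-gated cells of the mutant libraries.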
